A study of Saccharomyces cerevisiae with 2 samples.

Results

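The actin and tubulin cytoskeleton genes described here are 9 coding sequences (CDSs) of budding yeast, chosen by name from the 6666 CDSs listed for each library: ACT1, COF1, PFY1, TPM1, ABP1, SAC6, TUB1, TUB2 and TUB3. All 9 were found in both CDS tables. The study sequenced ribosome footprints, the mRNA fragments protected by translating ribosomes, from Saccharomyces cerevisiae BY4742, a haploid laboratory strain of mating type alpha, to look for translation outside annotated genes. The only group was BY4742 in mid-exponential growth in a synthetic medium, to which cycloheximide, a drug that stalls elongating ribosomes, had been added at 50 µg/mL, and it has 2 replicate libraries. Whether these are separate cultures is not in the labels, so the spread between them may be technical. No second condition exists, and every test below compares the 2 libraries with each other.

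Actin polymerizes into filaments that form cortical patches, where endocytosis takes place, and cables, along which vesicles travel to the bud. Actin-binding proteins set how fast filaments grow, how long they last and how they are bundled. Dimers of alpha- and beta-tubulin polymerize into the microtubules that build the mitotic spindle and position the nucleus. Yeast has a single actin gene and a single beta-tubulin gene, but a pair of alpha-tubulin genes, TUB1 and TUB3, and a pair of tropomyosin genes, TPM1 and TPM2.

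The CDS tables summed to 23437283 reads (replicate 1) and 2733591 reads (replicate 2). A single read is thus worth 0.0427 and 0.366 counts per 1000000 CDS reads (CPM) in these libraries. As a check of the strain, the 4 alpha-specific genes had 247 to 49545 reads in replicate 1 and 17 to 4867 in replicate 2, and the 6 a-specific genes 0 to 18 and 0 to 2, while URA3, LEU2 and LYS2, which BY4742 lacks, had 0, 1 and 2 reads in replicate 1 and none in replicate 2. HIS3, which is deleted only in part in the strain, had 1046 and 116 reads. Most CDSs were higher in replicate 1 per CDS read: among the 5131 whose reads averaged 10 or more, the median ratio of replicate 1 over replicate 2 was 1.52-fold (0.61 on the log2 scale). This shift was smaller at high levels, 0.22 on the log2 scale in the 1026 tested CDSs with the most CPM on average, called the top class below, which holds all 9 cytoskeleton genes.

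The 9 genes took 1.10% of the CDS reads of replicate 1 (257908 reads) and 1.44% of those of replicate 2 (39342 reads). Levels of different genes are compared below as footprint density, in CPM per kilobase of coding length. The density counts ribosomes on a message and does not separate more mRNA from more ribosomes per mRNA. In such bulk libraries fewer cells with a message and less message per cell cannot be told apart either. All 9 genes lay far above the median density of all CDSs with a known length, which was 21.97 CPM per kilobase in replicate 1 and 12.6 in replicate 2. The lowest of the 9, TUB3, lay at the 77.9 percentile in replicate 1 and the 82.1 percentile in replicate 2, and the other 8 lay at or above the 90.1 percentile in both.

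**Figure D1:**
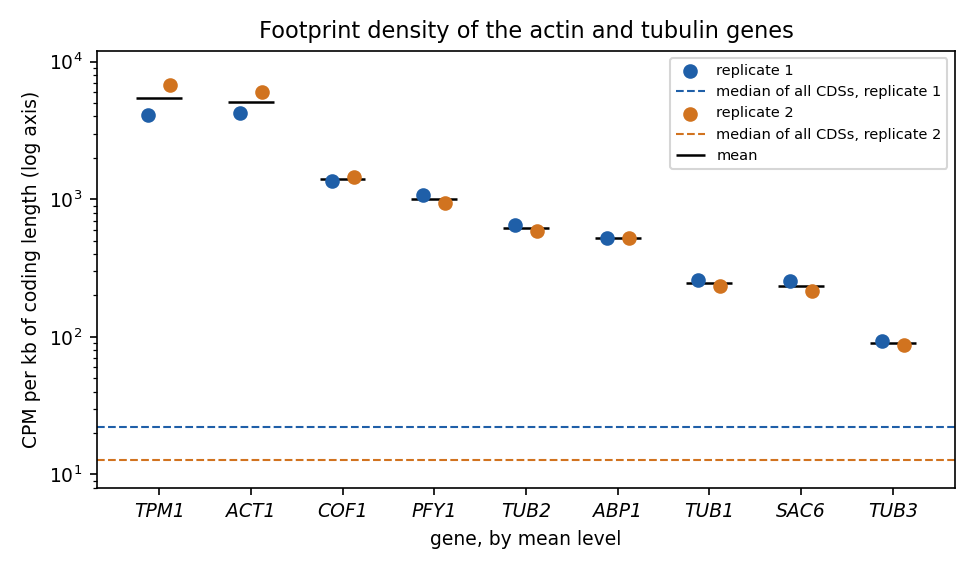
Footprint density of the 9 genes in CPM per kilobase of coding length (log axis), in order of their mean; points are the libraries, short bars the mean of both, and dashed lines the median of all CDSs in each library. ACT1 and TPM1 reach 4095 CPM per kilobase or more in both libraries, and TUB3 is lowest at 92.7 and 87.2.

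ACT1 encodes actin, the subunit of the filaments. Its gene (YFL039C) lies on the minus strand of chromosome VI, from 53260 to 54696 in the R64 sequence, and has 1128 coding nt split by a 309-nt intron. ACT1 had 112000 reads in replicate 1 against 18468 in replicate 2, which is 4779 and 6756 CPM. Its density was 5113 ± 1239 CPM per kilobase (SD, n = 2), and it ranked 71 in replicate 1 and 48 in replicate 2 among the 5993 CDSs with a length. The CDSs nearest to ACT1 in log2 CPM over the 2 libraries were RPL31A and RPS20, of the ribosome, and TDH2, a glyceraldehyde-3-phosphate dehydrogenase gene, at Euclidean distances of 0.091, 0.106 and 0.156; with only 2 libraries this is a likeness of level.

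COF1 and PFY1 encode the small proteins that bind actin monomers or turn filaments over. COF1 (YLL050C, chromosome XII, 39804 to 40414, minus strand) encodes cofilin, which severs and disassembles filaments. It had 13716 reads in replicate 1 against 1723 in replicate 2, and a density of 1355 and 1459 CPM per kilobase, a mean of 1407 ± 73.8 (SD, n = 2). PFY1 (YOR122C, chromosome XV, 552298 to 552887, minus strand) encodes profilin, which binds actin monomers and delivers them to growing filament ends. It had 9570 reads in replicate 1 against 983 in replicate 2, and a density of 1072 and 944 CPM per kilobase, a mean of 1008 ± 90.4 (SD, n = 2). COF1 stood above PFY1 in both libraries, 1.26-fold in replicate 1 and 1.55-fold in replicate 2, and their ranges by CDS totals did not overlap.

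TPM1, ABP1 and SAC6 encode proteins that bind along filaments. TPM1 (YNL079C, chromosome XIV, 478566 to 479165, minus strand) encodes the major tropomyosin, which coats and stabilizes the filaments of actin cables. It had 57590 reads in replicate 1 against 11097 in replicate 2, and a density of 4095 and 6766 CPM per kilobase, a mean of 5431 ± 1888 (SD, n = 2). TPM1 thus reached the density of actin itself, and the order of the pair turned between the libraries. TPM1 had 0.967 times the density of ACT1 in replicate 1 and 1.13 times in replicate 2, and their ranges overlapped.

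ABP1 (YCR088W, chromosome III, 265068 to 266846, plus strand) encodes a protein of cortical patches that binds filaments and activates the Arp2/3 complex, the nucleator of branched filaments. It had 21645 reads in replicate 1 against 2529 in replicate 2, and a density of 519.1 and 520.0 CPM per kilobase, a mean of 519.6 ± 0.647 (SD, n = 2), the closest match among the 9 genes when scaled by CDS totals; with TMM scaling or DESeq2 size factors SAC6 was closest. SAC6 (YDR129C, chromosome IV, 713340 to 715379, minus strand) encodes fimbrin, which bundles filaments in patches and cables. It had 11443 reads in replicate 1 against 1138 in replicate 2, and a density of 253 and 216 CPM per kilobase, a mean of 235 ± 26.4 (SD, n = 2). SAC6 was the lowest of the actin genes, and ABP1 stood above it in both libraries.

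The tubulin genes were read less densely than actin. TUB2 (YFL037W, chromosome VI, 56336 to 57709, plus strand), the beta-tubulin gene, lies 1639 nt from the coding extent of ACT1. It had 20932 reads in replicate 1 against 2222 in replicate 2, and a density of 650 and 592 CPM per kilobase, a mean of 621 ± 41.3 (SD, n = 2). The nearest CDSs to TUB2 in log2 CPM were SHM2, a serine hydroxymethyltransferase gene, MBF1, a transcriptional coactivator gene, and PDA1, of pyruvate dehydrogenase, at distances of 0.018, 0.029 and 0.056.

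TUB1 (YML085C, chromosome XIII, 97941 to 99400, minus strand), the major alpha-tubulin gene and an essential one, had 8105 reads in replicate 1 against 863 in replicate 2. Its density was 257 and 235 CPM per kilobase, a mean of 246 ± 15.8 (SD, n = 2). TUB3 (YML124C, chromosome XIII, 22048 to 23683, minus strand), the minor alpha-tubulin gene, had 2907 reads in replicate 1 against 319 in replicate 2. Its density was 92.7 and 87.2 CPM per kilobase, a mean of 89.96 ± 3.88 (SD, n = 2). TUB1 was above TUB3 in both libraries, with no overlap.

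By mean density the order was TPM1, ACT1, COF1, PFY1, TUB2, ABP1, TUB1, SAC6 and TUB3. Of the 8 pairs of neighbours in this order, TPM1 with ACT1 and TUB1 with SAC6 had ranges that overlapped between the libraries by CDS totals. Within each library TUB1 still stood above SAC6, 1.02-fold in replicate 1 and 1.09-fold in replicate 2. No counting interval was computed for this pair, so whether these folds exceed counting error is not known. The other 6 pairs did not overlap by CDS totals. The closest of these were TUB2 and ABP1, with TUB2 1.25-fold above ABP1 in replicate 1 and 1.14-fold in replicate 2. Whether ranges overlap depends on the scaling, whereas the folds within a library do not. From the highest to the lowest mean the 9 genes spanned from 5431 to 89.96 CPM per kilobase.

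Ratios of 2 genes within a library do not depend on its depth or scaling. TUB1 and TUB3 kept the same proportion in both libraries. The ratio of TUB1 to TUB3 in reads per kilobase was 2.78 in replicate 1 (exact 95% interval 2.66 to 2.897) and 2.69 in replicate 2 (2.37 to 3.07), a mean of 2.73 ± 0.058 (SD, n = 2). TUB3 supplied 26.4% of the alpha-tubulin reads of replicate 1 (exact binomial interval 25.6% to 27.2%), and its share in replicate 2 was 26.99% (24.5% to 29.6%). All such intervals hold for counting error alone, because without molecular identifiers 2 reads may be copies of 1 molecule.

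Alpha-tubulin as a whole was read less densely than beta-tubulin. TUB1 and TUB3 together had 0.539 times the density of TUB2 in replicate 1 (0.526 to 0.551) and 0.545 times in replicate 2 (0.507 to 0.585), where equal densities would give 1. The proportions inside the tubulin family therefore differed between libraries by less than counting error.

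Ratios to ACT1 did not hold in this way, and ACT1 itself differed between the libraries. COF1 had 0.320 times the density of ACT1 in replicate 1 and 0.244 times in replicate 2. PFY1 had 0.253 and 0.158 times, ABP1 0.123 and 0.0868 times, and SAC6 0.0597 and 0.0360 times the density of ACT1 in replicates 1 and 2. TUB2 had 0.153 times the density of ACT1 in replicate 1 and 0.0988 times in replicate 2. All 5 of these ratios were lower in replicate 2, the ratio of TPM1 to ACT1 was higher there, and none of the 6 pairs of counting intervals overlapped. In both libraries actin was read at least 3.13 times as densely as cofilin, 3.95 times as densely as profilin and 16.7 times as densely as fimbrin.

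**Figure D2:**
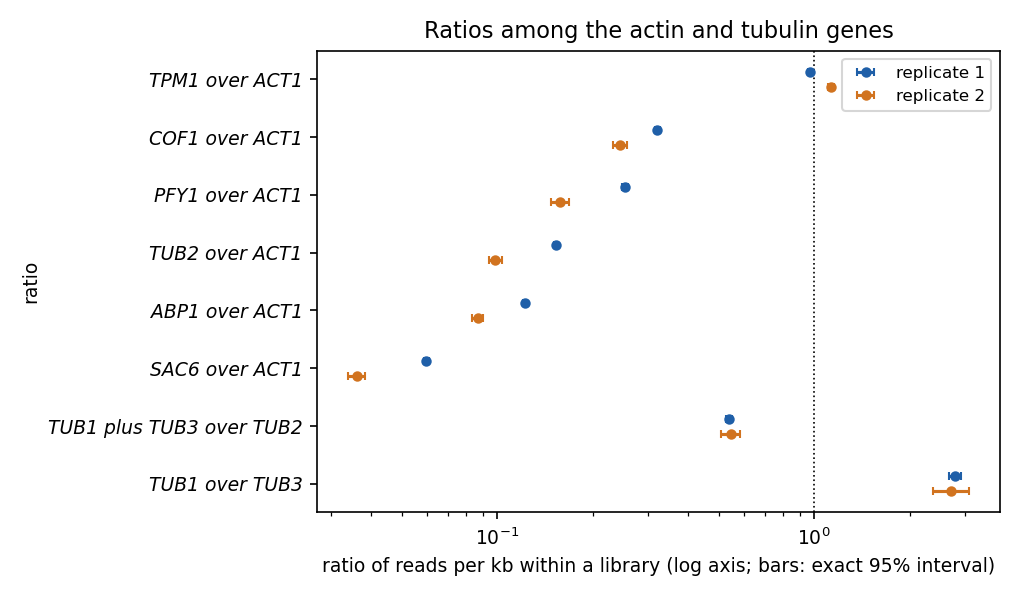
Ratios of reads per kilobase between genes within each library (log axis), with exact 95% intervals for counting error; the dotted line marks equal density. The ratios of TUB1 to TUB3 (2.78 and 2.69) and of alpha- to beta-tubulin (0.539 and 0.545) coincide in both libraries, whereas the 6 ratios to ACT1 differ between them.

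Counts of TUB1 and TUB3 could in principle be exchanged, since the proteins are close paralogs of 447 and 445 amino acids that share 406 of 445 aligned residues (91.2%). The reference coding sequences are less alike, with 1087 of 1338 aligned bases identical (81.2%). Of the 1317 windows of 28 nt in TUB1, about the length of a footprint, 5 occur elsewhere in the genome, and likewise 5 of 1311 in TUB3. Among the 1299 windows that align without a gap, 137 (10.5%) differ by at most 2 bases. How reads with several positions were handled is not given in the sources used here, so the reads of such windows are uncertain. The longest stretch that the pair shares is 32 nt long and starts at coding base 1222 of both genes. It is shown because it holds all 5 of the windows that are identical in both genes. It lies on the minus strand of chromosome XIII, at 98032 to 98063 in TUB1 and 22133 to 22164 in TUB3.
Shared by TUB1 and TUB3: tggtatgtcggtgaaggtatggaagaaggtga

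The ends of the genes show where the paralogs differ in length. The last 60 coding bases of each, read 5′ to 3′ and including the stop codon, are given with the bases in capitals that have no identical partner in the alignment of both sequences, 12 in TUB1 (97941 to 98000) and 7 in TUB3 (22048 to 22107). TUB1 carries 6 bases there that TUB3 does not, the difference in length between the proteins.
TUB1 end: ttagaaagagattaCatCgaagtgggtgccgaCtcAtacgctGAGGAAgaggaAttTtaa
TUB3 end: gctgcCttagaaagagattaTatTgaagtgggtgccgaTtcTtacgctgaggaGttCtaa
The other 7 cytoskeleton genes hold no repeated window, and neither does TPM2, so their counts are not shared with an identical copy at this length.

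An intron interrupts 6 of the 9 genes, against 317 of the 5993 CDSs with a length (5.29%), and in all 6 the first coding exon is very short, from 10 nt in ACT1 to 25 nt in TUB1 and TUB3. Among the 317 CDSs with an intron the median first coding exon has 42 nt, and 39.4% have at most 25 nt. The first 40 coding bases of each spliced sequence are given to show where the joint lies, with the first exon in capitals; the coordinates of the genes are those above.
ACT1 start: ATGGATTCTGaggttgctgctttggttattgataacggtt
COF1 start: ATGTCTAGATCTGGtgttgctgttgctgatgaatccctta
PFY1 start: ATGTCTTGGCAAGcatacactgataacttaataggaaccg
SAC6 start: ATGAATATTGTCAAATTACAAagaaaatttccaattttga
TUB1 start: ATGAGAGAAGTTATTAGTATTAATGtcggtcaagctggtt
TUB3 start: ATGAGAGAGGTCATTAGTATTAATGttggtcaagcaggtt
A footprint across such a joint matches the genome only if it is aligned as spliced, and whether the authors did so is not given in the sources used here. The windows of 28 nt that are in the spliced coding sequence but nowhere in the genome make up 3.21% of those of COF1, 3.11% of those of PFY1 and between 0.817% and 1.83% of those of the other 4. Windows that begin before the start codon and cross the joint were not counted in these shares.

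All 9 genes use the codons of highly translated genes more than most CDSs do. The codon adaptation index, which is 1 for a gene built only from the codons most used in a reference set, here 132 ribosomal protein genes, had a median of 0.195 over all CDSs. It was 0.758 for ACT1, 0.622 for COF1, 0.518 for PFY1 and 0.369 for TPM1. The other 5 genes lay between 0.297 (TUB3) and 0.346 (TUB1), at or above the 86.85 percentile of all CDSs. Across the 9 genes the index and the mean density had a Spearman rho of 0.82, and across all 5993 CDSs 0.44; these are descriptions across genes, which share the libraries and are not independent replicates.

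TPM1 departed from that order by the index, but was not the only gene to do so. TUB1 had a higher index than TUB2 and ABP1 (0.346 against 0.330 and 0.303) but a lower mean density. SAC6 likewise had a slightly higher index than ABP1 and a lower density. By another measure, the percentage of codons that are the most used in the reference set, TPM1 was not low. It had 63.3% (95.5 percentile), beside 71.3% for ACT1, 60.7% for COF1 and 63.9% for PFY1. Over all CDSs with a length, 55 had a higher mean density than TPM1. Of the 5483 CDSs with an index at or below its 0.369, 1 did, YLR154C-G, which the annotation places inside a 25S ribosomal RNA gene and which was named after its values were seen.

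**Figure D3:**
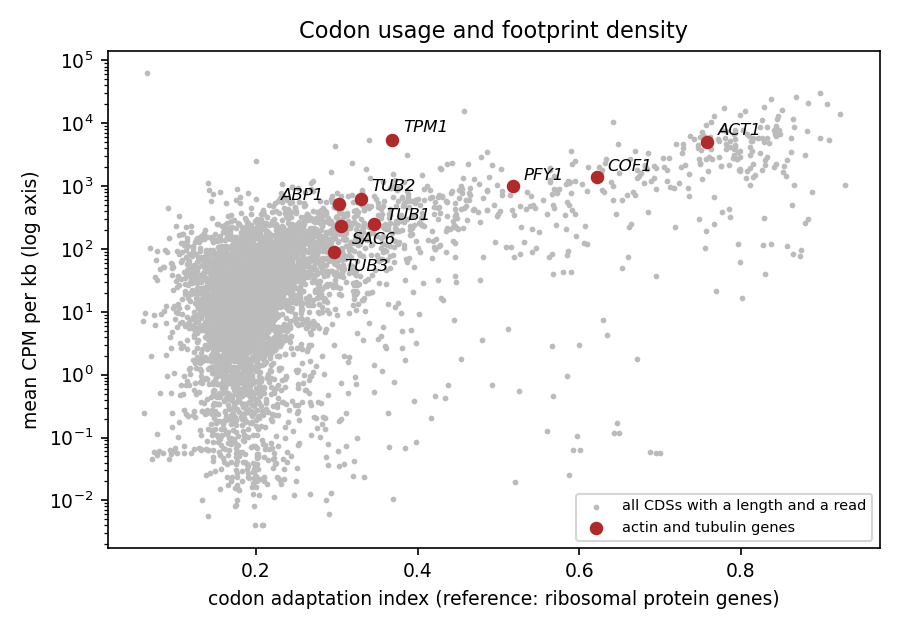
Mean footprint density in CPM per kilobase (log axis) against the codon adaptation index for all CDSs with a length and a read (grey) and the 9 genes (red). ACT1, COF1 and PFY1 follow the band of CDSs with a high index, and TPM1, at an index of 0.369, stands above nearly all CDSs of the same index.

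The 2 libraries were compared gene by gene by an exact binomial test (two-sided) on the division of each CDS's reads between them, against the split of the CDS totals, with Benjamini-Hochberg adjustment over the 5131 CDSs tested and a threshold of 0.05. All 9 genes were tested, 7 passed, and of these 4 were higher and 3 lower in replicate 1. Of all tested CDSs 71.2% passed, 63.9% higher and 7.25% lower in replicate 1, and in the top class 83.6% passed, so the number of cytoskeleton genes that passed is near the background. Of the top class 59.1% were called higher and 24.6% lower in replicate 1. The test treats reads as independent molecules and covers counting error alone, in its p-values as in its intervals. The biological coefficient of variation between the libraries, edgeR's common estimate over the tested CDSs, was 40.2% by CDS totals and 27.3% with TMM scaling. TPM1 and ACT1 differed most. TPM1 had 0.605 times the CPM in replicate 1 that it had in replicate 2 (exact interval 0.593 to 0.618) and ACT1 0.707 times (0.696 to 0.719), with p-values of the exact binomial test too small for the computation to resolve. COF1 was also lower in replicate 1, 0.929-fold (0.883 to 0.977, exact binomial test, adjusted p = 0.00655).

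PFY1, SAC6, TUB1 and TUB2 were higher in replicate 1, by 1.14-fold, 1.17-fold, 1.095-fold and 1.10-fold, and in the exact binomial test their adjusted p lay between 5.35e-07 (SAC6) and 0.0164 (TUB1). By CDS totals the coefficient of variation of the density was at most 34.8% among the 9 genes (TPM1), with 24.2% for ACT1. All 9 thus lay below edgeR's coefficient of 40.2%, which was estimated without removing the shift shared by most CDSs. With TMM scaling it ran from 17.9% (SAC6) to 60.6%, on both sides of the 27.3%. TUB3, at 1.063-fold (0.9465 to 1.197, adjusted p = 0.363), and ABP1, at 0.998-fold (0.958 to 1.04, adjusted p = 0.953 by the same exact binomial test), did not pass. The direction of several genes depends on the scaling. Relative to the shared shift of 0.61 on the log2 scale all 9 genes lay lower in replicate 1, by 1.33 for TPM1, 1.11 for ACT1, and between 0.38 and 0.71 for the other 7. With TMM scaling all 9 were called lower in replicate 1, beside 44.4% of all tested CDSs called, 20.1% higher and 24.3% lower. With DESeq2 size factors all 9 were again called lower, beside 44.1% of all tested CDSs called, 18.4% higher and 25.7% lower. The share of the top class called under these scalings was not computed. Highly read CDSs shifted less as a class, and within the top class TPM1 stood at the 2.73 percentile of the log2 ratio, ACT1 at the 5.65 percentile, and the other 7 between the 23.6 and the 50.8 percentile. The median log2 ratio was 0.087 over the 9 genes, 0.22 over the top class and 0.61 over all tested CDSs.

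**Figure D4:**
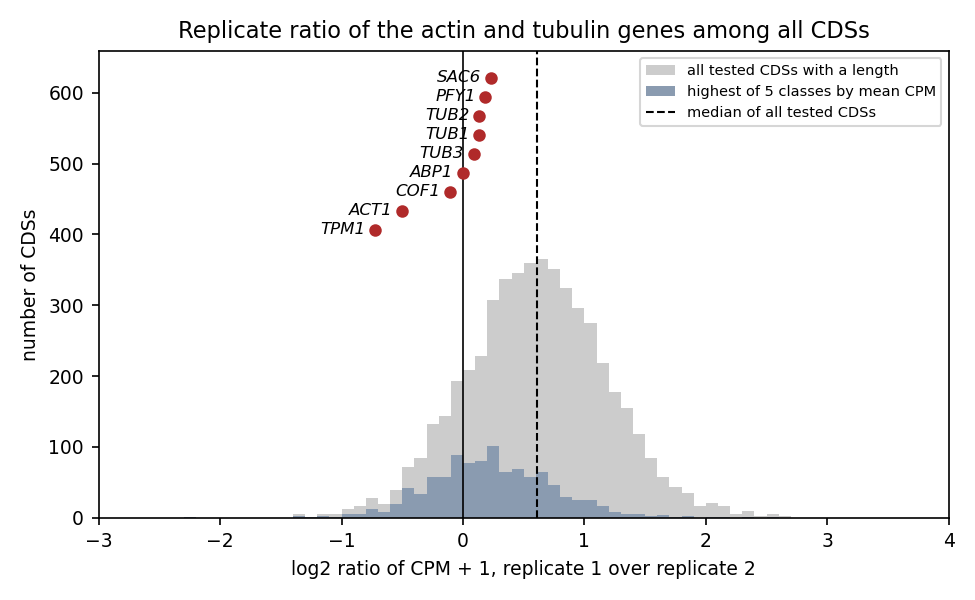
Log2 ratio of CPM + 1, replicate 1 over replicate 2, for all tested CDSs with a length (light bars), those in the top class by mean CPM (dark bars) and each of the 9 genes (red points, set at arbitrary heights). All 9 points lie left of the dashed median of all tested CDSs, and TPM1 (-0.72) and ACT1 (-0.50) lie farthest left.

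Between the libraries the 9 genes varied by a median of 6.65% by CDS totals (coefficient of variation of the density), against 17.0% in the top class and 32.5% over all tested CDSs. With TMM scaling the order turned, with 24.7% for the 9 genes, 21.8% for the top class and 20.3% over all tested CDSs, and likewise with DESeq2 size factors, with 26.1%, 22.8% and 20.1%. By CDS totals TPM1 varied by 34.8%, ACT1 by 24.2% and SAC6 by 11.3%, and the other 6 by less than 9%. With 2 libraries each such value rests on 1 difference.

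The 71 other genes of the actin and tubulin pathways, in 9 lists, were read far less densely. Their median density was 30.2 CPM per kilobase in replicate 1 and 21.2 in replicate 2, against 650 and 592 for the 9 genes described here. Of the 71, 17 had a mean density above that of TUB3 and 2 above that of TUB2. These 2 were TPM2, the minor tropomyosin gene, with 692 and 711 CPM per kilobase in replicates 1 and 2, and MLC1, a myosin light chain gene, with 749 and 905. TPM1 had 5.92 times the density of TPM2 in replicate 1 (5.78 to 6.06) and 9.51 times in replicate 2 (8.90 to 10.2). Within both paralog pairs the major gene was higher in both libraries, but the proportion of the tropomyosins differed between the libraries beyond counting error and that of the alpha-tubulins did not.

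**Figure D5:**
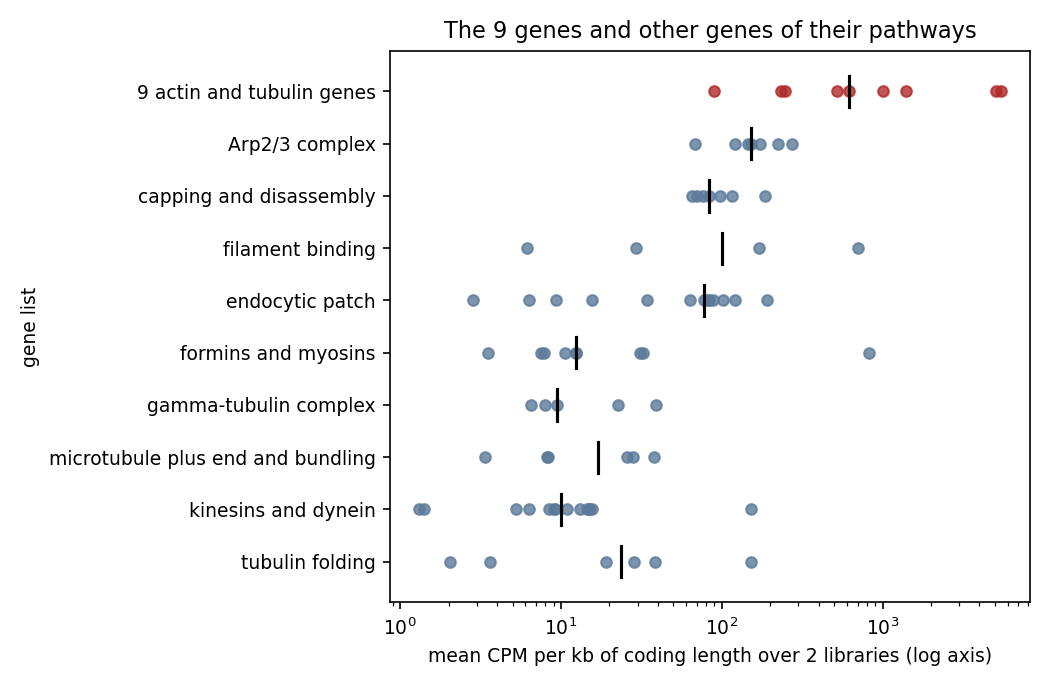
Mean footprint density over the 2 libraries (log axis) of the 9 genes and of 71 other genes in 9 lists; each point is a gene and each bar the median of its list. All 9 genes lie above the median of the 71 genes, and 3 of the 71 (TPM2, MLC1 and ARC35) lie above SAC6.

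On the actin side, the lists ran as follows, in CPM per kilobase as the mean over the libraries. The Arp2/3 complex, which nucleates branched filaments in patches, ranged from 68.3 for ARC40 to 273 for ARC35. Capping and disassembly factors ranged from 65.1 for CAP1, a subunit of the capping protein, to 185 for SRV2, a cyclase-associated protein that recycles actin monomers. Endocytic patch proteins ranged from 2.84 for ARK1, a protein kinase, to 189.8 for RVS161, an amphiphysin-like protein. The list of formins, which build cables, and of myosins ranged from 3.49 for the formin gene BNR1 to 827 for MLC1. The list of filament-binding proteins ran from 6.145 for IQG1, of the cytokinetic ring, to 701.5 for TPM2. Of all 71 genes, 3 were denser than SAC6 on average, namely TPM2, MLC1 and ARC35.

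On the microtubule side most genes were read less densely. The gamma-tubulin complex, which nucleates microtubules at the spindle pole body, ranged from 6.505 CPM per kilobase for SPC72, its anchor on the cytoplasmic side, to 39.0 for TUB4. TUB4, the gamma-tubulin gene, had 44.3 CPM per kilobase in replicate 1 and 33.7 in replicate 2, below TUB3 in both. Plus-end and bundling proteins ranged from 3.37 for KAR9, which orients the spindle, to 37.8 for BIM1, the yeast EB1 protein, and kinesins and dynein from 1.31 for NIP100, a dynactin subunit, to 152 for the dynein light chain gene DYN2. Tubulin folding factors ranged from 2.05 for PAC2, which acts on alpha-tubulin, to 153 for RBL2, which binds beta-tubulin.

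Between the libraries, 59 of the 71 genes passed the exact binomial test by CDS totals, 56 higher and 3 lower in replicate 1, beside 63.9% and 7.25% of all tested CDSs. The 3 lower ones were ARC35, SLA1, an endocytic adaptor gene, and MLC1. In the lists of the gamma-tubulin complex, plus-end proteins, motors and folding factors, 25 of 31 passed and all 25 were higher in replicate 1. The median log2 ratio of the 71 genes was 0.575, near the 0.61 of all tested CDSs. With TMM scaling 33 of the 71 passed, 16 higher and 17 lower, beside 44.4% of all tested CDSs, 20.1% higher and 24.3% lower. Of the 31 genes on the microtubule side 11 then passed, 10 higher and 1 lower, and of the 40 on the actin side 22 passed, 6 higher and 16 lower, in place of 31 higher and 3 lower by CDS totals. The direction on the actin side thus depends on the scaling. The difference between the sides was not tested, and most genes on the microtubule side were read less densely. By CDS totals 24.6% of the top class was called lower in replicate 1, beside 7.25% of all tested CDSs, so the calls differed by level.

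Outside the coding sequences, the study listed 78989 intergenic open reading frames (IGORFs), each running from stop codon to stop codon. Within 200 nt of the coding extent of the 9 genes, on either strand, lay 111 of them, of which 9 had a read in either library (8.11%), against 5.82% of all IGORFs. Near PFY1, TPM1, TUB1 and TUB3 none of the 48 IGORFs had a read, which allows up to 3 reads for each, a level of 0.128 CPM (replicate 1) or 1.10 CPM (replicate 2). Of the 9 with a read, 1 had at least 10 reads in a library, and the other 8 had at most 3 in either.

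That IGORF lies upstream of ACT1 on the same strand, on chromosome VI from 54704 to 54784, and its stop codon ends 7 nt before the ACT1 start codon. It had 16 reads in replicate 1 against 52 in replicate 2, which is 0.143 and 2.82 reads for each 1000 reads of ACT1. Its 81 nt contain no ATG in any frame. The 30 bases that end with the ACT1 start codon (54694 to 54723, minus strand) are given because they hold the border between the IGORF and the gene, with the stop codon of the IGORF and the start codon of ACT1 in capitals.
ACT1 border: caagatcgaaaatttacTGAattaacaATG
A window of 28 nt that starts at the stop codon shown thus covers the ACT1 start codon as well. How reads at such a border were assigned is not given in the sources used here. The level of the IGORF was 0.683 CPM in replicate 1 and 19.0 CPM in replicate 2, 27.9-fold higher in replicate 2 (exact interval 15.7 to 52.3). All IGORFs together had 173.1 and 5530 CPM, 31.9-fold more in replicate 2, a value inside that interval. The IGORF table with more reads thus belongs to the library with fewer CDS reads. Were these tables exchanged between the libraries, the IGORF before ACT1 would have 2.22 CPM in replicate 1 and 5.85 CPM in replicate 2.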

How the data were processed

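Ribosome footprints of 2 libraries of 1 group were analysed. The deposited values are raw read counts per CDS and per IGORF, per the file headers. The submitters' processing notes name cutadapt, Bowtie, SAMtools and sacCer3 and give no version. Not given in the sources used here are the annotation, the counter, the treatment of spliced or multiply placed reads, and any filter by length or frame of the reads. Each of these can move counts between paralogs or at exon joints.

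From the counts, CPM over CDS totals was computed, and density as CPM per kilobase of coding length from the RefSeq annotation of R64. It holds 5993 of the 6666 identifiers, and 673 are left without a length. All 78989 IGORF identifiers end at a stop codon of the R64 sequence when read as 1-based coordinates. Log2 ratios used a pseudocount of 1 CPM. The exact binomial test was run on every CDS whose reads averaged 10 or more, with Benjamini-Hochberg adjustment and a threshold of 0.05, and was tested on simulated counts. The simulated counts held counting error alone, so they do not show the error rate of the test where libraries vary beyond it. With 1 group, a test between conditions was not possible. Intervals are exact 95% binomial intervals; for sums of genes the lengths were weighted by reads. The limit for a count of 0 is 3 reads.

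Alternative scalings came from DESeq2 1.42.0 and edgeR 4.0.16 (R 4.3.3). Tests and figures were made with scipy 1.17.1, Biopython 1.88, pandas 2.3.3, matplotlib 3.10.9 and numpy 2.4.6 in Python 3.11.15. The genes, the lists and the tests were chosen with earlier results of these data known. Named genes are the 9 genes, TPM2 and TUB4, the highest and lowest gene of each list, the 3 CDSs nearest to ACT1 and TUB2, and IGORFs near the 9 genes with at least 10 reads in a library; strain markers come from a list of mating-type and deleted genes; genes called lower or denser than SAC6 among the 71, and YLR154C-G, were named after their values were seen.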

Additional observations from a re-analysis of the deposited data

How the results depend on the processing

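By log2 ratio without a pseudocount, 5 genes whose ratio favoured replicate 1 by CDS totals (TUB3 without passing the test) were lower there with TMM scaling (PFY1 -0.41, SAC6 -0.37, TUB1 -0.47, TUB2 -0.46, TUB3 -0.51) and with DESeq2 size factors (PFY1 -0.44, SAC6 -0.40, TUB1 -0.49, TUB2 -0.49, TUB3 -0.54). The number of the 9 genes that passed was 7 by CDS totals, 9 with either scaling, and 7 with no minimum beyond 1 read or with a minimum mean of 50 reads. Of all tested CDSs 71.2% passed by CDS totals, 44.4% with TMM scaling and 44.1% with DESeq2 size factors. With no minimum beyond 1 read 3621 of 5638 CDSs passed, and with a minimum mean of 50 reads 3615 of 4724. Of the 71 pathway genes 33 passed with TMM scaling and 34 with DESeq2 size factors, in place of 59. In alternatives chosen after seeing the data, 11 (TMM) and 12 (DESeq2) of the genes on the microtubule side passed in place of 25, and 22 with either scaling on the actin side in place of 34. The median coefficient of variation of the 9 genes was 24.7% (TMM) and 26.1% (DESeq2) in place of 6.65%. The ratio of alpha- to beta-tubulin was 0.554 when length was counted as 28-nt windows found once in the genome, in place of 0.541. Within 100 nt of the 9 genes 3 IGORFs had a read and within 500 nt 13, in place of 9; without 1 of the replicates the number was between 5 and 8. The median density of the 9 genes lay between 592 and 650 CPM per kilobase under the 5 alternatives, and the order of the genes changed only without replicate 2, where ACT1 preceded TPM1. A pseudocount of 0.1 CPM changed no direction. No paired analysis was possible because there is 1 group. Among the 9 genes depth is lowest for TUB3, with 319 reads in replicate 2.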
